A study of Mus musculus with 9 samples.

Results

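The 48 genes described here build the centromere and kinetochore of the mouse chromosome or guard its segregation: the centromeric histone and inner kinetochore (14 genes), the outer kinetochore (10), the motors and couplers of its outer face (7), the spindle assembly checkpoint (7), the Aurora and Polo kinases with the chromosomal passenger complex (6), and the protectors and cutters of sister chromatid cohesion (4). They were taken by gene symbol from 55335 symbols in each deposited table, and all 48 were found. The series asked how *Mfn1*, the mitochondrial fusion gene mitofusin 1, and the histone variant H3.3 act in early mouse embryos. It holds 9 polyA RNA libraries of 8-cell embryos, 3 each for control, MFN1-KD and H3.3-KD. By the study's methods the embryos came from ICR mice by in vitro fertilization, and zygotes received siRNA: a nontargeting siRNA in the control group, siRNA against *Mfn1* in MFN1-KD, and siRNA against both H3.3 genes, *H3f3a* and *H3f3b*, in H3.3-KD. The control embryos were thus injected too. Each library pooled embryos, 5 to 10 by the labels, so the values average over embryos and over cells in different phases of the cycle, and a lower level in each cell cannot be told apart from fewer cells that hold the transcript. No label says that the pools were collected on separate days, so the p-values measure the spread between pools.

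The kinetochore is assembled in layers on chromatin that carries CENP-A, a histone H3 variant found only at centromeres. Around it sits the constitutive centromere-associated network, which holds the KMN network (Knl1, the Mis12 complex and the Ndc80 complex), and the Ndc80 complex binds microtubules. Kinetochores without microtubules make the checkpoint proteins bind Cdc20, the activator of the anaphase-promoting complex, until every chromosome is attached, and Aurora B in the passenger complex releases faulty attachments. Cleavage divisions of the mouse embryo go through these steps on spindles built without centrioles.

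The siRNA targets were low in the libraries labelled for them. *Mfn1* stood at 51.6, 22.6 and 23.8 FPKM (a read level corrected for gene length and library size) in control and at 9.54, 4.40 and 1.15 in MFN1-KD, a log2 fold change of -2.66 ± 0.58 (SE, adjusted p = 0.0432, limma), a call that held in 8 of the 18 alternatives and was lost without any single control library. *H3f3a* fell from a control mean of 1932 FPKM to 149 in H3.3-KD (log2 fold change -3.69 ± 0.20, adjusted p = 7.23e-06) and *H3f3b* from 2988 to 246 (-3.64 ± 0.21, adjusted p = 8.96e-06). The exact permutation test gave p = 0.1 for each, the smallest that 3 against 3 libraries allow. The libraries differed in how many genes were listed above 0, from 15577 in MFN1-KD replicate 3 to 24820 in H3.3-KD replicate 2. Of 8 markers of the 8-cell stage all were measured, but *Cdx2* averaged 0.0767 FPKM and *Pou5f1* 7.24 FPKM in control. *Pou5f1* had 330, 392 and 63.1 FPKM in H3.3-KD, and 3.68, 2.74 and 0.30 in MFN1-KD. Of the 8 markers, 5 rose and 1 fell in H3.3-KD, against 21.8% and 9.12% of all genes tested. Granulosa and cumulus markers *Fshr* and *Inhba* were listed at 0 in all 9 libraries, and the 9 markers of those cells summed to 16.1 to 29.8 FPKM in control, 10.3 to 19.3 in MFN1-KD and 38.2 to 67.3 in H3.3-KD, nearly all of it *Amhr2*. None of 8 oocyte markers was called in either knockdown, where 0 (H3.3-KD) and 1 (MFN1-KD) had an unadjusted p under 0.05 (limma). The haemoglobin gene *Hba-a1* averaged 70.2 FPKM in control and 10.6 in H3.3-KD, where it fell, and the 4 blood markers summed to 77.8 to 101 FPKM in control, 18.3 to 77.9 in MFN1-KD and 9.07 to 14.6 in H3.3-KD. The part of these marker differences in the results below was not tested. Tables list FPKM without read counts, so the depth behind each value is unknown.

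The kinetochore genes were well expressed in control 8-cell embryos. None was listed at 0 in any library, and 40 of the 48 had a control mean above that of the median gene tested. *Pttg1*, securin, the inhibitor of the cohesin-cutting protease separase, was the most abundant at 702, 774 and 941 FPKM in the 3 control libraries. *Birc5*, survivin of the passenger complex, followed at 448, 531 and 605 FPKM, and *Cdc20* came next at 452, 334 and 293 FPKM. These libraries' ranges for *Birc5* and *Cdc20* overlapped by a narrow margin, whereas *Pttg1* lay above both. At the other end stood *Cenpo*, a subunit of the CENP-O subcomplex, at 2.0, 1.2 and 1.9 FPKM, and *Nsl1* of the Mis12 complex at 2.13, 1.2 and 2.29 FPKM, which overlapped. Levels within a single complex were thus far apart: *Cenpa*, CENP-A itself, had 202, 207 and 228 FPKM in control, and its direct reader *Cenpc1* had 5.33, 3.98 and 3.67 FPKM. The median coefficient of variation among the 3 control libraries was 20% for the 48 genes and 26.4% for all genes tested, and in MFN1-KD it was 34.1% and 46.2%.

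**Figure D1:**
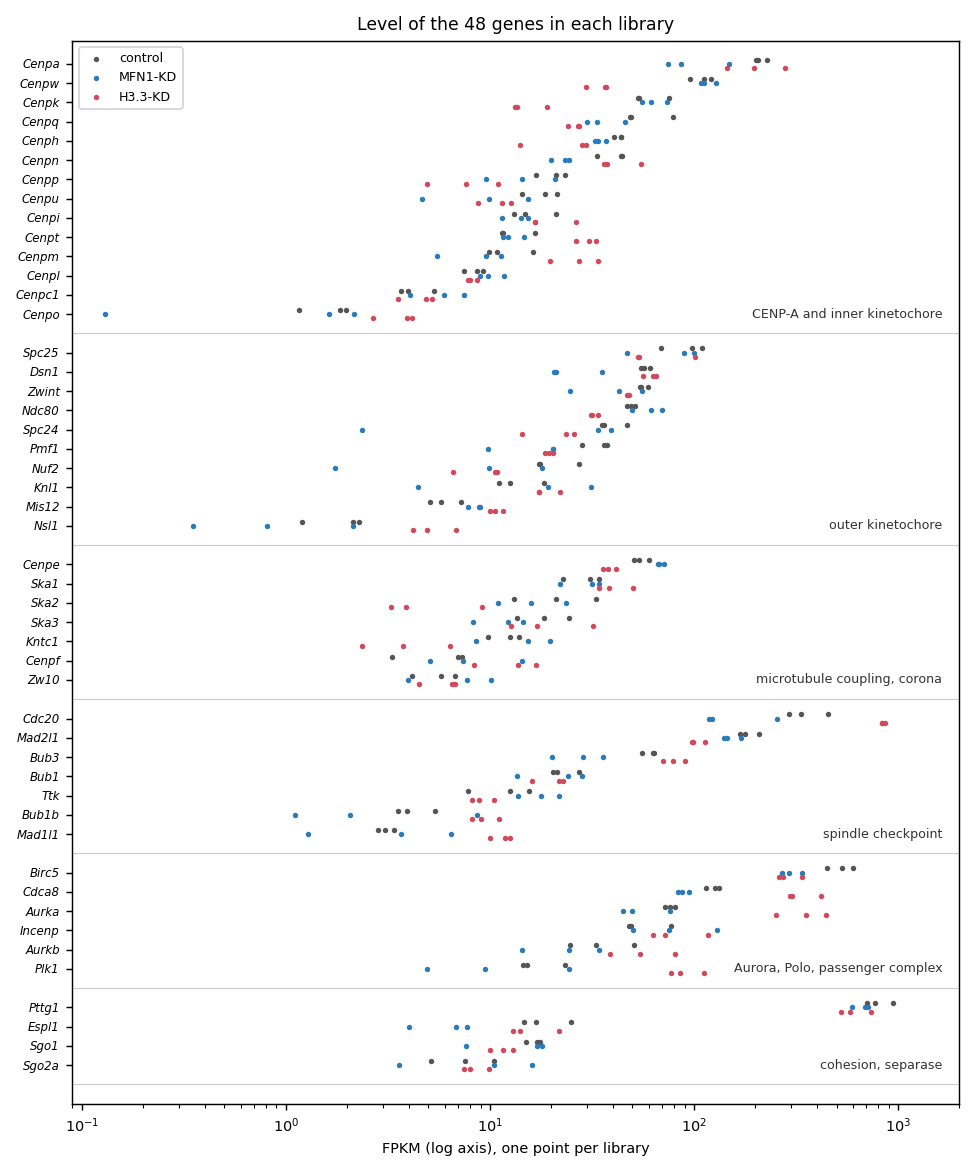
FPKM of each of the 48 genes on a log axis, grouped by role and ordered by control mean within a role, with 1 point per library for control (grey), MFN1-KD (blue) and H3.3-KD (red). *Pttg1*, *Birc5* and *Cdc20* lie at the high end, *Cenpo* and *Nsl1* at the low end, and for *Cenpo*, *Spc24*, *Nuf2* and *Knl1* the blue point of MFN1-KD replicate 3 lies far to the left of the others.

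Promoter sequences are shown for 7 genes on which the results turn: the 6 called in H3.3-KD under every alternative processing, and *Cdc20*. Genes that peak in mitosis often carry a CHR element, bound by the MuvB core of the DREAM and B-Myb complexes, with CCAAT boxes bound by NF-Y near it. Each sequence is the 150 bases before the RefSeq transcription start (GRCm38.p6, 5′ to 3′ on the gene's strand), and the capitals mark CHR letters (TTTGAA or TTCGAA) and CCAAT boxes (CCAAT), with either strand searched.
Aurka (chr2:172370571-172370720, minus strand): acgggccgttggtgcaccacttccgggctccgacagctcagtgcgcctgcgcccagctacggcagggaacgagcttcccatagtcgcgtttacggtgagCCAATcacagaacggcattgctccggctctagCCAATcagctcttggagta
Plk1 (chr7:122159285-122159434, plus strand): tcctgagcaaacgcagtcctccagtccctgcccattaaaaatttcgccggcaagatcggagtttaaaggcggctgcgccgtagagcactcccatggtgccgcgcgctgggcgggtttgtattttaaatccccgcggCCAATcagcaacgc
Cdca8 (chr4:124936918-124937067, minus strand): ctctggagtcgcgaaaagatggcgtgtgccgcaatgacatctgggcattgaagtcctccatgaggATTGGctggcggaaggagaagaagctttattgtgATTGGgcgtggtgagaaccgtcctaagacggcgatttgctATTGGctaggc
Cdc20 (chr4:118437344-118437493, minus strand): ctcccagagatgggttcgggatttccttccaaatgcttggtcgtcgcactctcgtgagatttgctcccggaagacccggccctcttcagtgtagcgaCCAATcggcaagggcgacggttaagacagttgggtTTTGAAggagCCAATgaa
Cenpk (chr13:104228461-104228610, plus strand): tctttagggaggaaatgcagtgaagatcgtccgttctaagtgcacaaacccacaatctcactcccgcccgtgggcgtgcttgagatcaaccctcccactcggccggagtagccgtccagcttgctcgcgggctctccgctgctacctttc
Cenpw (chr10:30200541-30200690, minus strand): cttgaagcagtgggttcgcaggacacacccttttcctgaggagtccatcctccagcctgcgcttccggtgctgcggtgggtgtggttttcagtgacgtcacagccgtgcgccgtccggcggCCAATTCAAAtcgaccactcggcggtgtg
Birc5 (chr11:117849087-117849236, plus strand): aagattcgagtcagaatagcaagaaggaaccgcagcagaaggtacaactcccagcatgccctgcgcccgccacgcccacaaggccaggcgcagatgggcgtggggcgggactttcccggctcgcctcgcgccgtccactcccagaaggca
Bases after the start are shown for *Aurka* and *Plk1* alone, as CHR letters with 10 bases on either side, so the lines above do not show every CHR match of the window.
Aurka (chr2:172370523-172370548, minus strand): aaggagaaccTTTGAAttgtaacggc
Plk1 (chr7:122159455-122159480, plus strand): cagcgccgcgTTTGAAttcggggagg
In *Cenpw* the CHR letters, on the other strand, share a base with the CCAAT box. *Cenpk* has 3 RefSeq promoters, and the first listed is shown. Over the window from 250 bases before to 50 after the start, 24 of the 48 promoters of the 43 matched genes held CHR letters (50%), against 19.2% of all 32851 RefSeq promoters. A CCAAT box was present in 70.8% of these promoters against 37.4% of all, and both together in 41.7% against 7.52%. A match of letters is a description and no evidence of binding. CHR letters were found in 5 of the 7 matched genes that rose in H3.3-KD and in 2 of the 9 that fell. The 23 genes with CHR letters moved by a median of 0.05 on the log2 scale in H3.3-KD, and the 20 matched genes without them had -0.45. Median GC content of the transcripts was 47.0% and 43.0% in these sets, and its part in the difference was not tested.

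In H3.3-KD embryos *Plk1*, *Aurka*, *Mad1l1*, *Cdca8*, *Cdc20*, *Nsl1*, *Cenpt* and *Cenpm* rose, and *Cenpk*, *Ska2*, *Cenpw*, *Kntc1*, *Cenpp*, *Cenpq*, *Cenph*, *Birc5* and *Mad2l1* fell. Of the 48 genes, 8 rose and 9 fell at an adjusted p under 0.05 (limma on log2(FPKM + 1), Benjamini-Hochberg over 13011 genes). Among all genes tested, 21.8% rose and 9.12% fell, so that the 16.7% of these genes that rose is below the background and the 18.8% that fell is above it. The median log2 fold change of the 48 genes was 0.01, and that of all genes tested was 0.26. The general shift depended on scaling: with median-ratio scaling the median of all genes moved from 0.26 to 0.00 and 6 of the 48 rose and 13 fell, against 16.3% and 13.4% of all genes. With upper-quartile scaling it moved to -0.07 and again 6 rose and 13 fell, against 14.5% and 15.1%. In MFN1-KD, measured against the same control libraries, 0 genes rose and 3 fell, against 1.15% and 2.20% of all genes (limma). At an unadjusted p under 0.05, 12 of the 48 passed in MFN1-KD in either direction, against 23.2% of all genes, and 22 in H3.3-KD, against 42.1%. The median change in MFN1-KD on the log2 scale was -0.31 for the 48 genes and -0.08 for all genes. By the threshold of the study's methods, more than 2-fold with an unadjusted p under 0.05, H3.3-KD held 9 higher and 6 lower genes of the 48 (23.9% and 9.39% of all genes), and MFN1-KD held 0 higher and 7 lower (5.02% and 9.05%, limma). All 3 libraries lay above every control library for 13 genes and below for 17 in H3.3-KD, against 34.5% and 18.9% of all genes, and for 2 and 11 genes in MFN1-KD, against 11.4% and 16.8%.

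**Figure D2:**
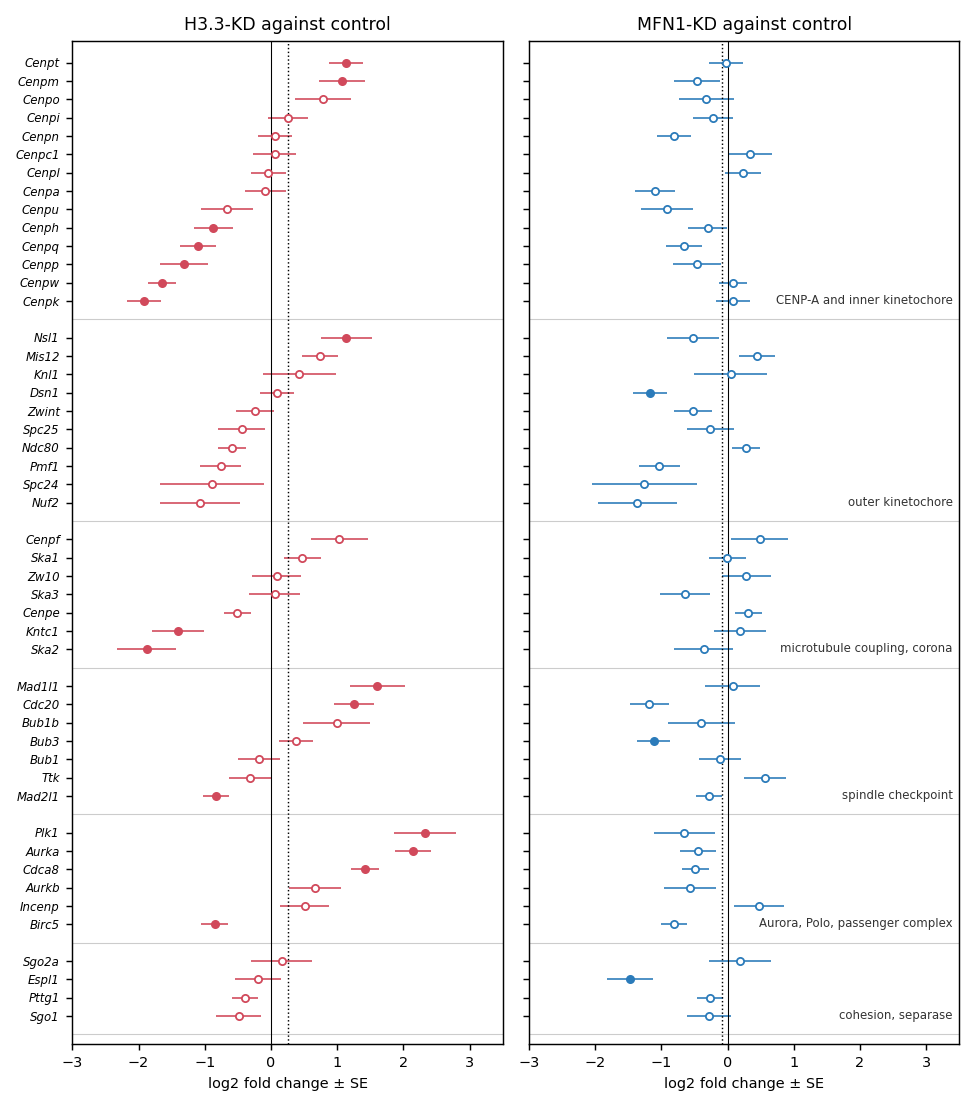
Log2 fold change ± SE (limma, log2(FPKM + 1) scale) of each of the 48 genes against control, by role, in H3.3-KD (left, red) and MFN1-KD (right, blue); filled points have an adjusted p under 0.05, and the dotted line is the median of all genes tested (0.26 and -0.08). Filled points lie on both sides of 0 in H3.3-KD (8 higher, 9 lower) and on the lower side alone in MFN1-KD (3).

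The Aurora and Polo kinases and the passenger complex moved furthest in H3.3-KD, where 3 of the 6 genes rose and 1 fell, against 21.8% and 9.12% of all genes tested. *Aurka*, Aurora A, which builds the spindle poles, stood at 76.7, 71.9 and 80.4 FPKM in control, 445, 252 and 355 in H3.3-KD, and 49.9, 76.5 and 44.99 in MFN1-KD. Every H3.3-KD library lay above every other library, and the MFN1-KD libraries overlapped the control. *Aurka* rose 4.60-fold by the means, which was 2.15 ± 0.27 in the fit on the log2 scale (adjusted p = 0.000443). *Plk1*, Polo-like kinase 1, which drives mitotic entry and kinetochore assembly, stood at 23.4, 15.2 and 14.5 FPKM in control, 85.2, 76.9 and 113 in H3.3-KD, and 9.47, 24.4 and 4.91 in MFN1-KD. Again the H3.3-KD libraries stood clear of the rest. It rose there by 2.32 ± 0.47 on the log2 scale (adjusted p = 0.00443).

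*Cdca8*, borealin, which helps to place the passenger complex on centromeres, had 133, 127 and 115 FPKM in control, 295.5, 304 and 420 in H3.3-KD, and 87.4, 94.8 and 83.8 in MFN1-KD. The 3 groups did not overlap, with H3.3-KD highest and MFN1-KD lowest. It rose in H3.3-KD by 1.42 ± 0.20 on the log2 scale (adjusted p = 0.000775), and the change of -0.49 ± 0.20 in MFN1-KD did not pass (adjusted p = 0.184). *Birc5*, which joins borealin in the same subcomplex, went the other way. It had 448, 531 and 605 FPKM in control, 261, 274 and 339 in H3.3-KD, and 291, 340 and 270 in MFN1-KD. Both knockdowns lay below every control library and overlapped each other. *Birc5* fell in H3.3-KD by 0.85 on the log2 scale (SE 0.20, adjusted p = 0.00901), and its value in MFN1-KD was -0.81 ± 0.20 (adjusted p = 0.0553). *Aurkb*, Aurora B, the kinase of the complex, and *Incenp*, its scaffold, did not pass in either knockdown, and H3.3-KD gave them changes of 0.67 ± 0.39 and 0.51 ± 0.37.

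Of the 7 checkpoint genes, 2 rose and 1 fell in H3.3-KD (21.8% and 9.12% of all genes tested), and 1 fell in MFN1-KD (2.20% of all genes). *Cdc20* had 452, 334 and 293 FPKM in control, 834, 831 and 866 in H3.3-KD, and 118, 256 and 123 in MFN1-KD. The groups did not overlap, and the H3.3-KD libraries were close to each other. *Cdc20* rose in H3.3-KD by 1.25 ± 0.30 on the log2 scale (adjusted p = 0.00975), its value in MFN1-KD was -1.19 ± 0.30 (adjusted p = 0.0571), and the knockdowns differed from each other by 2.44 ± 0.30 (adjusted p = 0.000217). *Mad2l1*, Mad2, the protein that captures Cdc20, had 168, 178 and 208 FPKM in control, 113, 98.9 and 97.8 in H3.3-KD, and 140, 171 and 145 in MFN1-KD. Its H3.3-KD libraries were the lowest of all, while MFN1-KD reached into the control range. *Mad2l1* fell in H3.3-KD by 0.83 on the log2 scale (SE 0.19, adjusted p = 0.00928). *Mad1l1*, Mad1, which holds Mad2 at unattached kinetochores, was the least abundant checkpoint gene in control at 3.05, 2.83 and 3.39 FPKM. It had 10.1, 11.9 and 12.5 FPKM in H3.3-KD and 3.68, 6.45 and 1.28 in MFN1-KD. All H3.3-KD values exceeded the rest, and MFN1-KD values lay on either side of the control. Its rise in H3.3-KD was 1.61 ± 0.42 (adjusted p = 0.0147).

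*Bub3*, which brings Bub1 and BubR1 to the kinetochore, had 55.6, 63.3 and 64.1 FPKM in control, 78.7, 70.3 and 90.3 in H3.3-KD, and 28.7, 35.9 and 20.1 in MFN1-KD. The 3 groups were separate, MFN1-KD lowest. *Bub3* fell in MFN1-KD by 1.12 on the log2 scale (SE 0.25, adjusted p = 0.0466), its value in H3.3-KD was 0.38 ± 0.25 (adjusted p = 0.289), and the knockdowns differed by 1.5 ± 0.25 (adjusted p = 0.00132). Its partner *Bub1*, a checkpoint kinase, had -0.18 ± 0.31 for H3.3-KD and -0.11 ± 0.31 for MFN1-KD on that scale, neither passing. *Ttk*, Mps1, the kinase that starts checkpoint signalling, and *Bub1b*, BubR1, did not pass in either knockdown.

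In the inner kinetochore, the largest group, 5 of 14 genes fell in H3.3-KD (35.7%) and 2 rose (14.3%), against 9.12% and 21.8% of all genes tested. The transcripts of the 5 had 35.8% to 43.9% GC, and the part of GC content was not tested. No gene was called in MFN1-KD, where 1.15% of all genes rose and 2.20% fell. At an unadjusted p under 0.05, 4 passed there, against 23.2% of all genes (limma). The genes that fell belong to 3 subcomplexes. *Cenpk* of the CENP-H, I, K and M subcomplex had 53.9, 53.1 and 75.5 FPKM in control, 19.1, 13.6 and 13.3 in H3.3-KD, and 61.4, 55.6 and 74.1 in MFN1-KD. H3.3-KD lay far below both other groups, which covered the same range. *Cenpk* fell to 25.3% of the control mean, by 1.92 on the log2 scale (SE 0.26, adjusted p = 0.000556). *Cenph* of the same subcomplex had 44.1, 40.4 and 43.7 FPKM in control, 29.7, 28.2 and 14.1 in H3.3-KD, and 32.6, 33.9 and 37.2 in MFN1-KD. Both knockdowns were below the control without overlap. *Cenph* fell in H3.3-KD by 0.88 (SE 0.29, adjusted p = 0.0449), a call held in 8 of 18 alternatives and lost without any single control library. *Cenpm*, the small GTPase-like subunit of this subcomplex, had 9.91, 16.2 and 10.8 FPKM in control, 27.5, 33.95 and 19.6 in H3.3-KD, and 5.53, 11.4 and 9.55 in MFN1-KD. H3.3-KD was above every other library. *Cenpm* rose by 1.07 ± 0.35 (adjusted p = 0.0380), held in 10 of 18 alternatives, while *Cenpi*, the remaining subunit, had 0.26 ± 0.30 (adjusted p = 0.548).

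*Cenpw* and *Cenpt* encode a histone-fold pair that contacts DNA and recruits the Ndc80 complex, and they moved in opposite directions. *Cenpw* had 95.9, 121 and 113 FPKM in control, 36.8, 29.6 and 36.9 in H3.3-KD, and 128, 112 and 108 in MFN1-KD. H3.3-KD was well below the other groups. *Cenpw* fell by 1.64 on the log2 scale (SE 0.21, adjusted p = 0.000455). *Cenpt* had 16.6, 11.5 and 11.6 FPKM in control, 30.5, 33.1 and 26.4 in H3.3-KD, and 11.6, 14.7 and 12.3 in MFN1-KD. Here H3.3-KD was the high group. *Cenpt* rose by 1.13 ± 0.26 (adjusted p = 0.00882).

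In the CENP-O subcomplex, which aids chromosome alignment, *Cenpp* and *Cenpq* fell. *Cenpq* had 48.6, 48.9 and 79.2 FPKM in control, 27.1, 27.2 and 24.3 in H3.3-KD, and 33.4, 46.1 and 29.8 in MFN1-KD. All libraries of both knockdowns were below the control. *Cenpq* fell in H3.3-KD by 1.10 (SE 0.27, adjusted p = 0.0124), and its value in MFN1-KD was -0.66 ± 0.27 (adjusted p = 0.182). *Cenpp* had 16.7, 23.3 and 21.0 FPKM in control, 10.99, 7.68 and 4.90 in H3.3-KD, and 14.4, 20.9 and 9.58 in MFN1-KD. Only H3.3-KD was clear of the control. *Cenpp* fell by 1.32 (SE 0.36, adjusted p = 0.0200). *Cenpo* had 3.93, 4.15 and 2.67 FPKM in H3.3-KD and 1.63, 2.16 and 0.13 in MFN1-KD, and did not pass in H3.3-KD (0.78 ± 0.42, adjusted p = 0.183).

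CENP-A itself did not pass the test against control in either knockdown. *Cenpa* had 202, 207 and 228 FPKM in control, 146, 197 and 280 in H3.3-KD, and 74.7, 149 and 86.8 in MFN1-KD. The H3.3-KD libraries spread on either side of the control, and the MFN1-KD libraries lay below it. On the log2 scale this was -0.08 ± 0.30 for H3.3-KD (adjusted p = 0.860) and -1.09 ± 0.30 for MFN1-KD (adjusted p = 0.0743), and the knockdowns differed by 1.01 ± 0.30 (adjusted p = 0.0237). That difference was called in 9 of the 18 alternatives, and the libraries of the knockdowns overlapped. With the GC and length trend removed it was 0.44 (adjusted p = 0.267, limma). *Hjurp*, the chaperone that deposits CENP-A, rose in H3.3-KD, with 9.97, 6.18 and 5.52 FPKM in control, 21.0, 26.1 and 28.7 in H3.3-KD, and 6.95, 6.94 and 8.16 in MFN1-KD (log2 fold change 1.70 ± 0.30, adjusted p = 0.00221). *Cenpn*, a further reader of CENP-A, had a value of -0.81 ± 0.26 in MFN1-KD (adjusted p = 0.101).

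**Figure D3:**
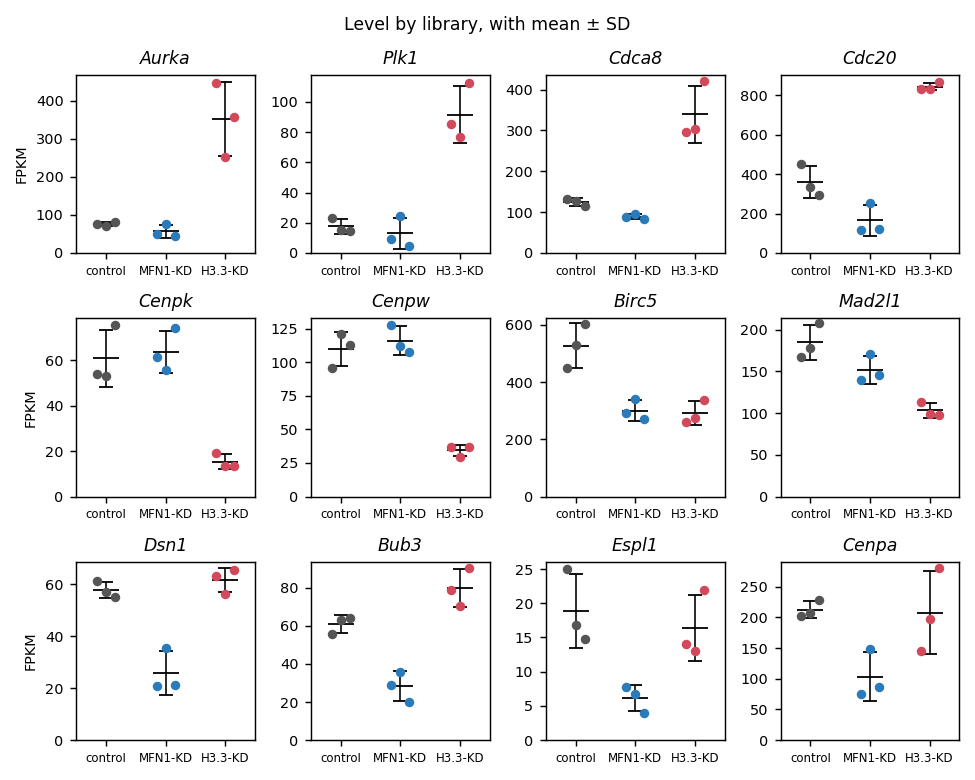
FPKM of 12 of the genes in each library (points), with the mean and SD of the 3 libraries (bars), for control, MFN1-KD and H3.3-KD; each panel has its own axis from 0. H3.3-KD is the high group for *Aurka*, *Plk1*, *Cdca8* and *Cdc20* and the low group for *Cenpk*, *Cenpw* and *Mad2l1*, MFN1-KD is the low group for *Dsn1*, *Bub3*, *Espl1* and *Cenpa*, and *Birc5* is low in both.

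The outer kinetochore held 1 gene that rose in H3.3-KD and 1 that fell in MFN1-KD among 10, against 21.8% and 2.20% of all genes tested. Both belong to the Mis12 complex that links the KMN network to the chromatin side. *Dsn1* had 61.2, 57.0 and 55.1 FPKM in control, 63.0, 56.4 and 65.4 in H3.3-KD, and 20.7, 35.5 and 21.2 in MFN1-KD. Control and H3.3-KD covered the same range and MFN1-KD lay below both. *Dsn1* fell in MFN1-KD by 1.18 on the log2 scale (SE 0.25, adjusted p = 0.0419), and the knockdowns differed by 1.26 ± 0.25 (adjusted p = 0.00328). *Nsl1* had 2.13, 1.2 and 2.29 FPKM in control, 4.91, 4.19 and 6.83 in H3.3-KD, and 2.13, 0.81 and 0.35 in MFN1-KD. H3.3-KD was above all other libraries, at a low level throughout. *Nsl1* rose by 1.14 ± 0.39 (adjusted p = 0.0478), a call that held in 4 of the 17 alternatives that tested it and was lost without any single control or H3.3-KD library.

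The Ndc80 complex, the microtubule binder, had no call against control. *Ndc80* had 49.0, 51.3 and 47.2 FPKM in control, 31.8, 31.2 and 33.9 in H3.3-KD, and 49.9, 69.5 and 61.4 in MFN1-KD. Its H3.3-KD libraries were below all others, and the test against control gave -0.59 ± 0.22 (adjusted p = 0.0618), that against MFN1-KD -0.87 ± 0.22 (adjusted p = 0.0101). *Spc25*, the most abundant outer kinetochore gene in control, had 69.3, 110 and 97.4 FPKM there, 53.9, 53.1 and 101 in H3.3-KD, and 47.2, 101 and 89.2 in MFN1-KD, all overlapping. *Spc24* had 34.04, 39.2 and 2.36 FPKM in MFN1-KD and *Nuf2* had 9.85, 18.1 and 1.74. In both genes the third MFN1-KD library stood far below the other two. That library was the lowest of all 9 for 18 of the 48 genes (37.5%), and for 33.5% of all genes tested.

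On the outer face of the kinetochore, 2 of 7 genes fell in H3.3-KD, against 9.12% of all genes tested. None was called in MFN1-KD, where 1.15% of all genes rose and 2.20% fell. None passed an unadjusted p under 0.05 there either, against 23.2% of all genes (limma). *Ska2* of the SKA complex, which keeps kinetochores on shrinking microtubules, had 13.1, 21.0 and 33.2 FPKM in control, 3.88, 3.28 and 9.19 in H3.3-KD, and 10.9, 23.7 and 15.9 in MFN1-KD. H3.3-KD was below all other libraries although the control itself varied widely. *Ska2* fell by 1.88 on the log2 scale (SE 0.45, adjusted p = 0.0104), while its partners *Ska1* and *Ska3* had 0.47 ± 0.28 and 0.05 ± 0.38. *Kntc1*, Rod of the complex that brings dynein to kinetochores, had 13.9, 9.79 and 12.6 FPKM in control, 3.74, 2.37 and 6.35 in H3.3-KD, and 8.51, 19.8 and 15.4 in MFN1-KD. Only H3.3-KD was separate from the control. *Kntc1* fell by 1.41 (SE 0.39, adjusted p = 0.0211), and its partner *Zw10*, the least abundant gene of the group in control with 6.74, 5.73 and 4.16 FPKM, had 0.08 ± 0.37. *Cenpe*, the kinesin that carries chromosomes to the spindle middle, had 60.6, 51.1 and 53.7 FPKM in control, 35.9, 41.6 and 37.8 in H3.3-KD, and 66.4, 71.3 and 67.4 in MFN1-KD. The 3 groups did not overlap, yet neither test against control passed. The knockdowns differed from each other by -0.82 ± 0.20 (adjusted p = 0.00990).

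Among the 4 cohesion genes, *Espl1*, separase, fell in MFN1-KD, where 2.20% of all genes fell. It had 25.04, 16.9 and 14.7 FPKM in control, 14.1, 13.0 and 21.9 in H3.3-KD, and 7.69, 6.79 and 4.02 in MFN1-KD. MFN1-KD was the lowest group without overlap. *Espl1* fell by 1.48 on the log2 scale (SE 0.34, adjusted p = 0.0479), and the knockdowns differed by 1.28 ± 0.34 (adjusted p = 0.0141). Its transcript had 56.1% GC. With the GC and length trend removed, the knockdowns differed by 0.40 (adjusted p = 0.311, limma). *Espl1* was then called lower in H3.3-KD too (-1.11, adjusted p = 0.0168). *Pttg1*, its inhibitor, had 581, 734 and 527 FPKM in H3.3-KD and 593, 715 and 693 in MFN1-KD, overlapping the control range in each case, and did not pass. *Sgo2a*, shugoshin 2, which shields centromeric cohesin, had 10.5, 7.53 and 5.15 FPKM in control, 9.93, 8.02 and 7.5 in H3.3-KD, and 10.5, 16 and 3.58 in MFN1-KD, with the groups mixed. With any single control library left out, 0 of the 48 genes passed in MFN1-KD (limma). The share of all genes that fell went from 2.20% to 0.284%, 0.0% and 0.0% without control replicate 1, 2 and 3. Again 0 of the 48 passed without MFN1-KD replicate 1 or 3 (1.9% and 1.38% of all genes fell). The same held without H3.3-KD replicate 1 or 2, which share the estimate of the spread (0.231% and 0.00769%). The 3 genes were called in 8 (*Dsn1*), 6 (*Bub3*) and 5 (*Espl1*) of the 18 alternatives.

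Set directly against each other, the knockdowns differed in 21 of the 48 genes: 14 were higher in H3.3-KD and 7 lower, against 27.6% and 11.0% of all genes. More than 2-fold with an unadjusted p under 0.05 were 15 higher and 4 lower (29.1% and 11.0% of all genes), and libraries did not overlap in 17 higher and 11 lower (33.1% and 14.8%). The largest differences among these genes were *Plk1* (2.97 ± 0.47, adjusted p = 0.000851) and *Aurka* (2.60 ± 0.27, adjusted p = 0.000109) on the higher side and *Cenpk* (-1.99 ± 0.26, adjusted p = 0.000307) and *Cenpw* (-1.73 ± 0.21, adjusted p = 0.000217) on the lower. *Birc5*, low in both, differed by -0.05 ± 0.20.

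The FPKM ratio of partner genes was taken within each library, where a common scaling of the library cancels. Such ratios of mRNA do not give the proportions of the proteins. The 12 pairs were chosen after the values were seen, so the ratios are a description without a test. A trend with GC content does not cancel in them. The transcripts of *Cenpt* and *Cenpw* had 51.5% and 35.8% GC, and those of *Cdc20* and *Mad2l1* 55.6% and 40.1%. *Cdca8* and *Birc5* had 47.9% and 47.4%. The part of GC content in the ratios was not tested. *Cdca8* to *Birc5* was 0.297, 0.240 and 0.190 in control, 1.13, 1.11 and 1.24 in H3.3-KD, and 0.300, 0.279 and 0.310 in MFN1-KD. Survivin mRNA was in excess of borealin mRNA in control and MFN1-KD, and the order was turned in all 3 H3.3-KD libraries. *Cdc20* to *Mad2l1* was 2.70, 1.87 and 1.41 in control, 7.38, 8.41 and 8.85 in H3.3-KD, and 0.844, 1.5 and 0.846 in MFN1-KD. H3.3-KD was separate from both other groups, and MFN1-KD reached the lowest control value. *Cenpt* to *Cenpw* was 0.173, 0.0953 and 0.103 in control and 0.828, 1.12 and 0.714 in H3.3-KD, with MFN1-KD between 0.0907 and 0.131. *Bub3* to *Bub1* lay between 2.03 and 3.14 in control, between 3.21 and 5.61 in H3.3-KD and between 1.18 and 1.48 in MFN1-KD. *Dsn1* to *Mis12* lay between 7.86 and 12.0 in control, between 5.63 and 5.96 in H3.3-KD and between 2.32 and 4.54 in MFN1-KD. For *Ndc80* to *Nuf2* and *Spc25* to *Spc24* the third MFN1-KD library stood apart, at 35.3 and 37.8, against 1.72 to 2.94 and 1.48 to 3.09 in control.

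**Figure D4:**
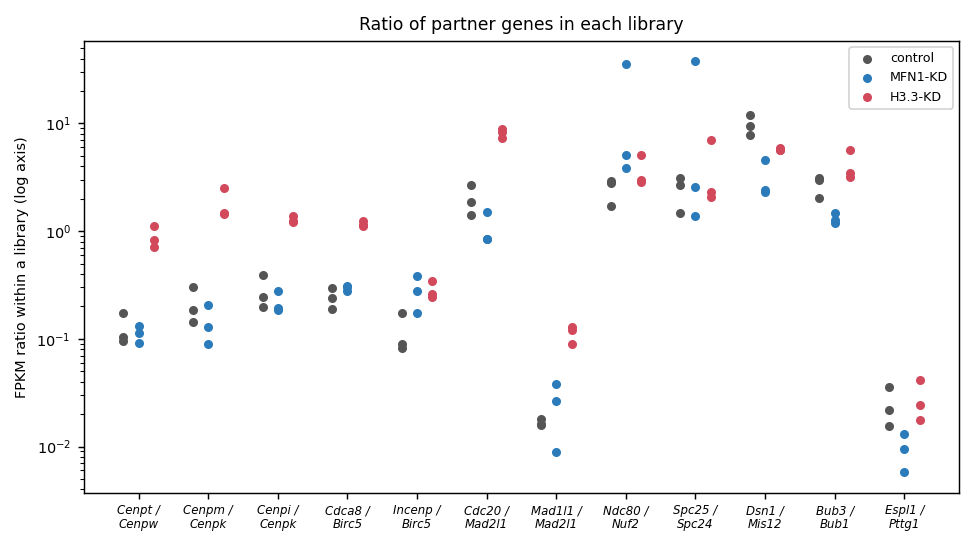
FPKM ratio of 12 pairs of partner genes within each library on a log axis, 1 point per library, for control (grey), MFN1-KD (blue) and H3.3-KD (red). H3.3-KD points lie above all others for *Cenpt*/*Cenpw*, *Cenpm*/*Cenpk*, *Cenpi*/*Cenpk*, *Cdca8*/*Birc5*, *Cdc20*/*Mad2l1* and *Mad1l1*/*Mad2l1*, and by a narrow margin for *Bub3*/*Bub1* (3.21 against 3.14 in control). Single MFN1-KD points stand apart at 35.3 and 37.8 for *Ndc80*/*Nuf2* and *Spc25*/*Spc24*.

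In H3.3-KD, the genes that rose and those that fell differed in the base composition of their transcripts. The 8 genes that rose had a median GC content of 53.5% (47.9% to 56.8%) and the 9 that fell had 41.2% (35.8% to 47.4%), without overlap. Below 45% GC, 0 of 22 genes rose and 7 fell (limma), with a median log2 fold change of -0.50, against -0.15 for all genes in that range. At 50% GC or more, 6 of 12 rose and 0 fell, with a median of 1.03 against 0.68. The share of all genes called within these GC ranges was not counted, so the counts cannot be read as particular to the 48 genes. Over the 48 genes the rank correlation (Spearman) of the change with GC content was 0.59 for H3.3-KD, against 0.34 over 12816 genes. For MFN1-KD it was -0.39, against -0.22. These are correlations across genes of the same libraries, which are not independent replicates. With the GC and length trend of all genes removed from each library, 10 of the 17 calls in H3.3-KD remained. *Aurka* (1.65), *Plk1* (1.37) and *Cdca8* (0.84) were still called higher, and *Cenpk* (-1.66), *Cenpw* (-1.50) and *Birc5* (-1.41) lower. *Cdc20* (0.47, adjusted p = 0.203), *Mad1l1* (0.47, adjusted p = 0.342), *Cenpt* (0.36, adjusted p = 0.273) and *Mad2l1* (-0.65, adjusted p = 0.0501) were among those that did not pass. The 3 genes that fell in MFN1-KD still passed.

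**Figure D5:**
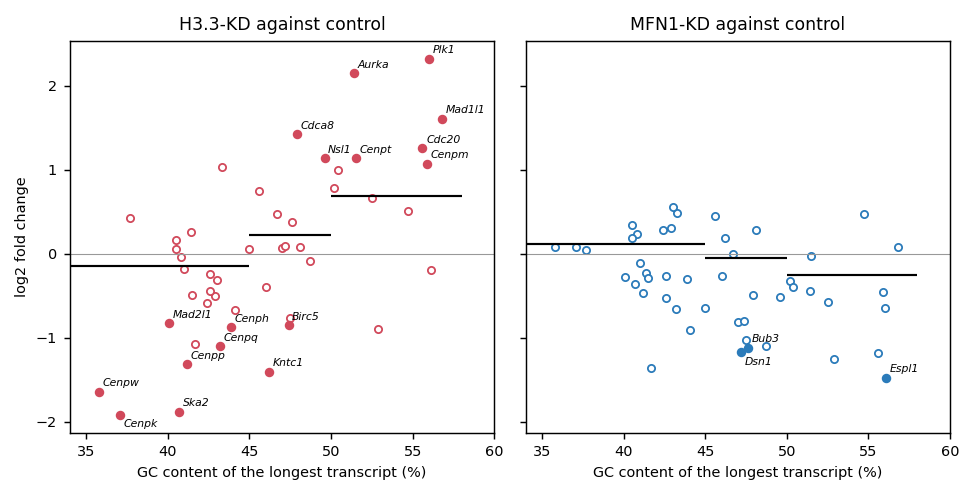
Log2 fold change against the GC content of the longest annotated transcript for the 48 genes in H3.3-KD (left) and MFN1-KD (right); filled and named points have an adjusted p under 0.05, and black lines give the median of all genes tested below 45%, from 45% to 50% and above. In H3.3-KD the 8 filled points above 0 lie at 47.9% or more and the 9 below 0 at 47.4% or less.

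The 6 genes *Aurka*, *Plk1*, *Cdca8*, *Cenpk*, *Cenpw* and *Birc5* were called in H3.3-KD under all 18 alternatives, and all 17 called genes kept their direction under each alternative that tested them (*Mad1l1* and *Nsl1* were not tested at the minimum of 10 FPKM). Without control replicate 3, 4 genes fell in place of 9, and 5.14% of all genes fell in place of 9.12%. *Ska2*, *Cenpq*, *Cenpp*, *Cenph* and *Kntc1* then did not pass. Of these, *Cenpp*, *Cenph* and *Kntc1* were also lost without another control library. Exons of 14 of the 48 genes, 9 of them called, overlap a gene on the opposite strand, among them *Cdca8*, *Cenpk*, *Cdc20* and *Plk1*. Since the strand setting of the counting is not given in the sources used here, reads in the shared 53 bases of *Cdc20* and 233 bases of *Cenpk*, for example, cannot be assigned with certainty.

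Genes that work with the kinetochore were counted in 6 further lists, to be read against the 21.8% of all genes that rose and the 9.12% that fell in H3.3-KD. Of 25 spindle motors and assembly factors 6 rose in H3.3-KD and 0 fell, and *Kifc1*, a minus-end kinesin that focuses spindle poles, had 0.60, 0.30 and 0.57 FPKM in control, 55.9, 34.2 and 52.2 in H3.3-KD, and 1.14, 1.25 and 0.21 in MFN1-KD (log2 fold change 5.00 ± 0.36, adjusted p = 2.78e-05). Of 18 genes for subunits, E2 enzymes, a coactivator and an inhibitor of the anaphase-promoting complex 7 rose and 5 fell, and *Ube2s*, which extends ubiquitin chains for that complex, had 25.1, 14.02 and 19 FPKM in control, 1029, 701 and 1095 in H3.3-KD, and 43.6, 59.7 and 13.2 in MFN1-KD (5.54 ± 0.48, adjusted p = 7.59e-05). *Kifc1* was below 1 FPKM in every control library, and both genes were far higher in each H3.3-KD library than in any other. Of 7 checkpoint partners 3 rose and 1 fell, led by *Nek2*, a centrosomal kinase (2.70 ± 0.28, adjusted p = 0.000173). Of 15 regulators of mitotic gene promoters 8 rose and 0 fell, led by *Rbbp4*, a histone-binding subunit of the MuvB core (2.16 ± 0.26, adjusted p = 0.000307). Of 22 cohesin and condensin genes 3 rose and 3 fell, led by *Mau2*, a cohesin loader (1.99 ± 0.43, adjusted p = 0.00626), and of 10 CENP-A loading and other centromere genes 2 rose and 0 fell. In MFN1-KD no gene of these 6 lists was called (limma), where 1.15% of all genes rose and 2.20% fell. The smallest p-values there belonged to *Nfyc*, an NF-Y subunit (-0.94 ± 0.23, adjusted p = 0.0553), *Anapc15*, a subunit of the anaphase-promoting complex (-0.83 ± 0.21, adjusted p = 0.0573), and *Mad2l1bp*, p31comet, which removes Mad2 from Cdc20 (-1.32 ± 0.33, adjusted p = 0.0594). At an unadjusted p under 0.05, 2 of 10, 3 of 7, 4 of 18, 6 of 22, 1 of 25 and 4 of 15 genes passed in MFN1-KD for the centromere, checkpoint partner, anaphase-promoting, cohesin, spindle and promoter regulator lists, against 23.2% of all genes.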

How the data were processed

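The 9 libraries were made from pooled 8-cell embryos by Smart-Seq2 with oligo-dT priming and paired-end sequencing. The authors trimmed reads with cutadapt 1.16 and mapped them to mm10 with STAR, and the deposited values are FPKM per gene symbol with 2 decimals; the program and annotation behind the FPKM and its strand setting are not given in the sources used here. Members were matched by symbol. The 13011 genes that averaged 1 FPKM or more entered a fit of log2(FPKM + 1) with limma 3.58.1 in R 4.3.3 (trend and robust, all 9 libraries, no covariate). Its two-sided p-values were adjusted by Benjamini-Hochberg over all 13011 genes. Because 1 was added before the logarithm, fold changes of low genes are understated. All 48 genes passed the filter of 1 FPKM. Scripts were tested on simulated data. Read counts were not used here, so the DESeq2 test of the authors was not repeated. Coordinates, GC content and length came from GENCODE M21 (GRCm38), promoters from RefSeq for 43 genes; one promoter stretch is not reported here.

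The members, role groups and further lists were chosen with earlier results of these data known. Values per library are given for each gene called in either knockdown and for the highest and lowest control mean of each role group; of other genes, the siRNA targets and at most 2 genes a list, by smallest p. Alternatives were another pseudocount (0.1), no filter or a minimum of 10 FPKM, median-ratio and upper-quartile scaling, only the 6 libraries compared, a replicate block, removal of the GC and length trend, library weights, and each of the 9 libraries left out.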

Additional observations from a re-analysis of the deposited data

How the results depend on the processing

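In H3.3-KD against control, where 8 of the 48 genes rose and 9 fell, 3 rose and 10 fell with the GC and length trend removed (11.6% and 12.2% of all genes). With library weights 14 rose and 14 fell (36.4% and 17.3% of all genes). Leaving out a library gave 6 to 9 that rose and 4 to 13 that fell, against 13.6% to 26.4% and 5.14% to 12.5% of all genes. The median relative to all genes, -0.25, was -0.0324 with no filter, -0.45 with a minimum of 10 FPKM (38 of the 48 genes tested), and -0.33 to -0.24 with a library left out. In MFN1-KD, 0 of the 48 genes rose under every alternative (limma), where 0.0% to 4.38% of all genes rose. The 3 that fell became 1 with the pseudocount of 0.1 (1.57% of all genes), and 0 with no filter (0.00612%) or with the 6 libraries compared (0.0%). They became 6 of the 38 genes tested with the minimum of 10 FPKM (7.06%) and 7 of the 48 with library weights (6.33%), against 2.20% of all genes in the main fit. With a library left out, 0 to 4 of the 48 fell (0.0% to 3.97% of all genes), with 4 only without MFN1-KD replicate 2. An unadjusted p under 0.05 (limma) was reached by 9 to 12 genes in the alternatives that used all libraries of both groups. The relative median, -0.23, lay between -0.29 and -0.11 with a library left out. Between the knockdowns, 14 genes were higher and 7 lower (27.6% and 11.0% of all genes). The lower genes became 11 with median-ratio scaling (16.3% of all genes) and 12 with upper-quartile scaling (18.2%). The higher genes became 7 with the GC and length trend removed (13.9%). Over the libraries left out the ranges were 11 to 16 and 5 to 8, against 21.4% to 29.5% and 8.31% to 12.2% of all genes. The relative median there, -0.10, was 0.23 with no filter and -0.29 to -0.043 with a library left out. *Mad2l1* between the knockdowns turned from -0.55 to 0.031 (adjusted p = 0.929) with the GC and length trend removed. The cause was not tested in these cases.

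Whether replicate numbers pair the samples was not settled. Of 9 pairs of libraries with the same number, 2 had a correlation of deviations over 0.1 (range -0.0526 to 0.158). Pairs with different numbers ranged from -0.116 to 0.072. With the replicate block, 7 genes rose and 8 fell in H3.3-KD, against 21.0% and 9.0% of all genes. In MFN1-KD 0 fell, against 0.192% of all genes (limma, 9 of the 48 with an unadjusted p under 0.05).

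Precision was limited by 3 pools a group and by FPKM without counts, so that genes near 1 FPKM, such as *Nsl1* and *Cenpo*, have no known counting error.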
